A study of Homo sapiens with 14 samples.

Results

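The nuclei described here were those of human gastruloids that held transcripts of PCDH8 or RIPPLY1, a pair of genes of segmenting paraxial mesoderm, with few or no transcripts of earlier mesoderm, neural and tail bud genes. A nucleus was a member when it held at least 1000 unique molecular identifiers (UMIs, counted RNA molecules), at most 25% of them mitochondrial, and when its raw UMIs of PCDH8 plus RIPPLY1 were 3 or more, those of TBX6 plus MSGN1 at most 1, those of SOX2 at most 1 and those of TBXT at most 2. Of 3422 nuclei that passed the UMI and mitochondrial limits, 310 were members (9.06%, exact binomial 95% interval 8.12 to 10.1%). The other 3112 nuclei were the comparison.

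Gastruloids are aggregates of stem cells that elongate and form derivatives of the germ layers without an embryo. They were grown from H9, an established human embryonic stem cell line, which was exposed to 3 μM of the GSK-3 inhibitor and WNT agonist CHIR-99021 before and during aggregation of 800 cells per well with a Rock inhibitor, and were collected at 72 h as elongated gastruloids. Gastruloids were pooled, and RNA and open chromatin were read from the same nuclei with the 10x Chromium multiome kit. There was 1 RNA library, with no untreated gastruloids, no second time and no replicate preparation. No difference between groups of nuclei could therefore be tested, no p-value is given, and every interval below covers counting error only.

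Paraxial mesoderm leaves the tail bud as presomitic mesoderm, where TBX6 and MSGN1 are active and a clock of Notch, WNT and FGF target genes oscillates. At its anterior end MESP2 marks the next segment, and the RIPPLY co-repressors switch off TBX6-driven transcription where the new border forms. PCDH8, a protocadherin known as paraxial protocadherin or PAPC, takes part in the sorting of cells at that border. Cells then enter the somite, where MEOX1, TCF15 and PAX3 are expressed, and the anterior and posterior parts of each somite are set apart by TBX18 and UNCX.

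The rule chose members by these values, which are given as a description. The 310 members held 2079 of the 2987 UMIs of PCDH8 in all passing nuclei (69.6%) and 2005 of the 3632 UMIs of RIPPLY1 (55.2%). Levels are given as CPM, the UMIs of a gene per 1000000 UMIs of the group of nuclei. PCDH8 was at 356 CPM in members and 17.1 CPM in the others, and RIPPLY1 at 344 and 30.6 CPM. In single members PCDH8 ran from 0 to 74 UMIs with a median of 3, and RIPPLY1 from 0 to 42 with a median of 4. The other nuclei overlapped this range, with up to 61 UMIs of PCDH8 and 35 of RIPPLY1 in a nucleus, because 116 of the 426 nuclei with 3 or more UMIs of the pair were left out by an upper limit. Of those, 72 exceeded the limit for TBX6 plus MSGN1, 38 that for SOX2 and 18 that for TBXT, with some over more than 1 limit.

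Members differed in which gene admitted them. Both genes were seen in 182 members, RIPPLY1 without PCDH8 in 101 and PCDH8 without RIPPLY1 in 27. Just inside the threshold were 74 nuclei with exactly 3 UMIs of the pair, and just outside were 192 nuclei with exactly 2 that met every other limit. At the other end, 66 members held 20 or more.

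**Figure D1:**
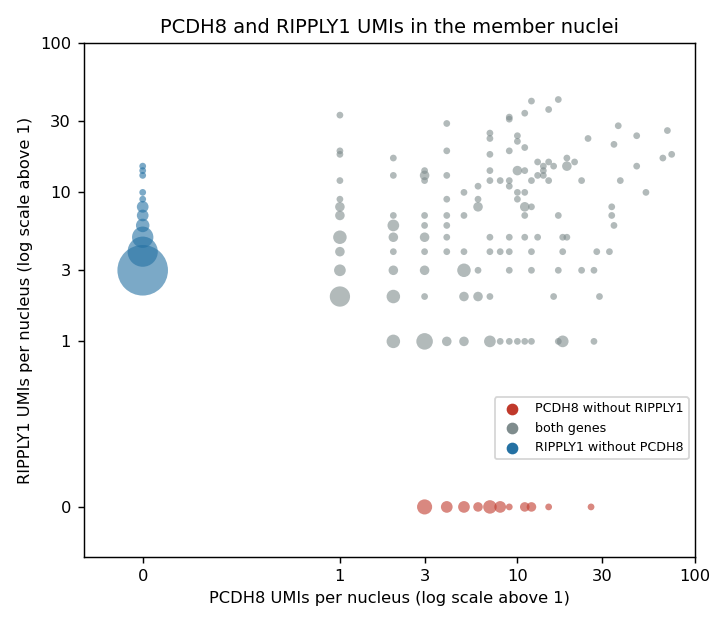
Members by their UMIs of PCDH8 (x axis) and RIPPLY1 (y axis) per nucleus, both on a log scale above 1, with the area of a point giving the number of nuclei that share the values. Members with RIPPLY1 alone gather at 3 to 5 UMIs, whereas members with both genes reach 74 UMIs of PCDH8 and 42 of RIPPLY1.

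In droplet data free RNA can add UMIs to nuclei that do not express a gene. Nuclei with 3 or more UMIs of NOTO, SHH and FOXJ1, genes of the notochord and node, were taken to lack PCDH8 and RIPPLY1, which was not tested. Of 504 such nuclei, 26 held 3 or more UMIs of the pair (5.16%, exact binomial 95% interval 3.40 to 7.47%), against 12.4% of all passing nuclei. Levels and shares of axial-gene nuclei given from here on are from the 498 that were not members. Scrublet marked 5.22% of these axial-gene nuclei as doublets, against 1.29% of members and 2.12% of the other nuclei. They were also deeper, with a median of 21129.5 UMIs against 17620.5 in members and 16138 in the other nuclei. After each nucleus was thinned to 5000 UMIs, which left 307 members, 2890 other nuclei and 488 axial-gene nuclei, PCDH8 was seen in 47.6% of members, 3.70% of the others and 1.43% of axial-gene nuclei. RIPPLY1 was seen in 66.8%, 13.3% and 10.9%. The RIPPLY1 share of the other nuclei was thus near that of a group taken to lack it. PCDH8 and RIPPLY1, with 2987 and 3632 UMIs in all passing nuclei, had unlike shares in axial-gene nuclei. Whether these shares were free RNA was not tested. How many members met the threshold through free RNA or as doublets was not tested.

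The start sites of 4 genes that carry the border program are shown because each lies in a called region of open chromatin. Each line gives the 250 bases before the start site, 5′ to 3′ on the gene's strand, from RefSeq on GRCh38.p14. For RIPPLY2 only the 119 bases before the first annotated start are shown. Capitals mark TCACAC, the core of the site bound by T-box factors such as TBX6, in the RIPPLY genes, and TTCCCA in MESP2, which is TGGGAA, the core bound by the Notch effector RBPJ, on the other strand.
PCDH8: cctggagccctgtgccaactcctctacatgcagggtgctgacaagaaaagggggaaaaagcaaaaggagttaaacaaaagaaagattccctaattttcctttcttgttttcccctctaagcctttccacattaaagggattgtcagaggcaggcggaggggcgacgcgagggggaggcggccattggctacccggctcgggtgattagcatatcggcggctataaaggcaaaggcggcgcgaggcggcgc
RIPPLY1: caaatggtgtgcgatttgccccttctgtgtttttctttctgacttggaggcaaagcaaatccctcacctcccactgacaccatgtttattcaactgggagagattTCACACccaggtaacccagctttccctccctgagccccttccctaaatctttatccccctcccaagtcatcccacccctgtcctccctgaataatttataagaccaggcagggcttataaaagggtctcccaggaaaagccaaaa
RIPPLY2: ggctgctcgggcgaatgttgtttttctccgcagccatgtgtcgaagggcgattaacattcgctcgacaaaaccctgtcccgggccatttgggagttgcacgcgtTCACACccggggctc
MESP2: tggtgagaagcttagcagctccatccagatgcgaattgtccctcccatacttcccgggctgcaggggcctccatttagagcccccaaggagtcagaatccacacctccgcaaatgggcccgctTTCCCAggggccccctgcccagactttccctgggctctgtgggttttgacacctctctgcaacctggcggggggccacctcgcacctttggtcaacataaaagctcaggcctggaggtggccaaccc

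The PCDH8 sequence is chr13:52848641-52848890 on the minus strand and lay within the peak at chr13:52848226-52849151. That of RIPPLY1 is chrX:106903342-106903591 on the minus strand, within the peak at chrX:106903146-106904075, and its TCACAC begins at -145 from the start site. That of RIPPLY2 is chr6:83853110-83853228 on the plus strand, within the peak at chr6:83853050-83853901, with TCACAC at -146 from the later start site that the reference table uses. That of MESP2 is chr15:89776082-89776331 on the plus strand and overlapped the peak at chr15:89776126-89776978, with TTCCCA at -127. Searched on both strands of all 35116 promoter windows, TCACAC was present in 9.90%, TGGGAA in 20.8% and the E-box CANNTG in 61.8%. In the 4 windows no match of one motif overlapped a match of another, and PCDH8 held none of the 3. Such a match is a description of letters and not a binding site. The 205374 peaks pool the reads of all nuclei, and 57.8% of all windows overlapped one, so that this openness cannot be assigned to the members.

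The other markers of the label, BARX2 and WIF1, were higher in members. They came with the label, with earlier results of these data known, so their excess is a description and no independent support. BARX2, a homeobox gene, was at 29.5 CPM in members (exact Poisson 95% interval 25.2 to 34.2) and 4.91 in the others (4.33 to 5.55), a ratio of 6.0 (exact conditional 95% interval 4.92 to 7.30). WIF1, a secreted WNT inhibitor, was at 21.8 and 2.73, a ratio of 7.97 (6.23 to 10.2). Both markers were absent from most members all the same. BARX2 was seen in 64 of 310 members, with up to 20 UMIs in a nucleus, and in 148 of 3112 others, with up to 9. At 5000 UMIs per nucleus it was found in 9.45% of members, 2.18% of the others and 0.615% of axial-gene nuclei, and WIF1 in 6.51%, 1.11% and 0.82%. The median member held 0 UMIs of either, so the markers describe the pooled group and only a part of its nuclei.

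Among 17144 genes with 50 or more UMIs, apart from the 6 of the rule, 274 were at least 2-fold higher in members (1.6%) and 1746 at least 2-fold lower (10.2%). The median ratio was 0.957. The rule's upper limits remove tail bud, neural and axial nuclei from the members alone, so the 1892 other nuclei that met the same upper limits were used as a second comparison, chosen after the data were seen. Against these, 354 genes were 2-fold higher (2.06%) and 1235 lower (7.2%). Of the 274 genes, 222 (81.0%) were higher in both comparisons, whereas 1019 of the 1746 lower genes (58.4%) were lower in both. Both comparisons use the same members, and the 1892 nuclei are part of the 3112, so these shares are in part fixed.

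The leading genes were ranked by the lower bound of the ratio, and the first 20 had ratios between 5.00 and 23.9. All 20 stayed above 4-fold against nuclei within the same limits, at 4.11 to 20.7. Those nuclei are part of the others by which the 20 were chosen. This is thus in part fixed by the choice and is given as a description. CER1 was the 1 gene of the somite border list among them, and the markers BARX2 and WIF1 were also among them. SSTR2, a somatostatin receptor, was at 249.8 CPM in members and 43.6 in the others (ratio 5.73, 95% interval 5.36 to 6.12). A median member held 3 UMIs of it, with a range of 0 to 38, while the others had a median of 0 and reached 28. SSTR2 was seen in 56.7% of thinned members and 15.02% of thinned others, beside 16.8% of axial-gene nuclei.

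RELN, the secreted glycoprotein reelin, was at 221 and 41.9 CPM (5.26, 4.91 to 5.64). Its antisense neighbour SLC26A5-AS1, which overlaps RELN, had a ratio of 6.95 on 58 UMIs in members. TRPC6, a cation channel, was at 90.8 and 12.6 (7.20, 6.41 to 8.08) and was seen in 25.4% of thinned members against 3.84% of the others. ADAM12, a membrane metalloprotease, was at 211 and 42.1 (5.00, 4.66 to 5.37). NR3C2, the mineralocorticoid receptor, was at 89.1 and 15.7 (5.68, 5.08 to 6.35) and overlaps ENSG00000250354. MYOCD, a co-activator of serum response factor in cardiac and smooth muscle, was at 64.1 and 9.62 (6.66, 5.81 to 7.63) and overlaps MYOCD-AS1 in the annotation.

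Smaller counts stood behind the rest of the 20. CER1, the secreted antagonist Cerberus, was at 11.8 and 1.69 CPM (6.98, 5.02 to 9.66) and was seen in 25 of 310 members. DOK5, an adaptor of receptor tyrosine kinases, was at 32.2 and 4.18 (7.71, 6.31 to 9.40). SLC15A3, a peptide transporter whose gene overlaps TMEM132A, was at 34.4 and 4.91 (7.01, 5.80 to 8.46). The adenylate cyclase ADCY8 had a ratio of 9.45, ARPP21 of 9.37, the GABA-B receptor subunit GABBR2 of 6.09 and the ectonucleotidase ENPP3 of 6.94. With nuclei of at most 15% mitochondrial UMIs the ratio of GABBR2 was 2.91.

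Of the 20 genes, 6 overlap another measured gene in the annotation, namely MYOCD, SLC15A3, NR3C2, RELN, SLC26A5-AS1 and MORC4. Other values drew much on 1 nucleus. ENSG00000233290 had the highest ratio, 23.9 (18.1 to 32.0), but 35.3% of its 184 UMIs in members came from 1 nucleus with 65. GADD45G, a stress-response and growth-arrest gene, had a ratio of 7.59 with 18.3% of its UMIs from 1 nucleus, and ENPP3 drew 15.6% from 1. MORC4 was at 137 and 26.1 (5.24, 4.79 to 5.72) and overlaps RIPPLY1 on the same strand in the annotation. A read of RIPPLY1 could have been given to it, so its ratio is not independent of the rule. A read of MORC4 could likewise have been counted as RIPPLY1 and have helped to admit a nucleus. Neither was tested. ENSG00000287722, at 47.6 and 3.78 (12.6, 10.5 to 15.2), lies 359 kb from PCDH8 and overlaps no measured gene.

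**Figure D2:**
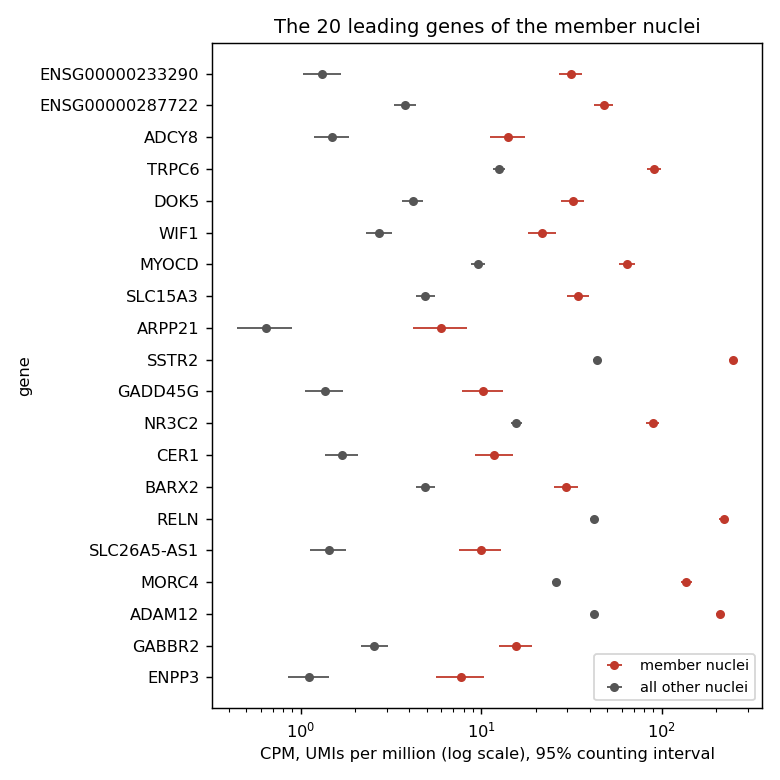
CPM (x axis, log scale) of the 20 genes with the highest lower bound of the ratio, in members (red) and in all other nuclei (grey), with exact Poisson 95% intervals as bars. In every row the members' interval lies above that of the other nuclei, and the ratios run from 5.00 to 23.9.

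The leading lower genes were near 0 in members. WDR49 was at 0.685 CPM in members and 63.3 in the others, ARMC3 at 3.94 and 82.4, and SEMA3E, a semaphorin, at 6.51 and 115. ENSG00000253836 had 0 UMIs in members and 629 in the others. WNT3A, a WNT ligand of the tail bud, had 2 UMIs in members and 1298 in the others. With nuclei of at most 15% mitochondrial UMIs the ratio of WDR49 went from 0.0108 to 0.0378, that of ARMC3 from 0.0478 to 0.115 and that of SEMA3E from 0.0568 to 0.130. The 10 lowest genes were also at or under 0.188 against nuclei within the same limits, which is in part fixed, since these are among the others that served to choose them. Of the nuclei within the same limits 111 were axial-gene nuclei, against 6 of the 310 members. The part of the axial-gene nuclei in these ratios was not tested.

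The genes of the pathways are given from lists chosen with earlier results of these data known, so their counts describe the members and are no independent support. Of 13 genes of the somite border, 4 were at least 2-fold higher and 0 at least 2-fold lower, with a median ratio of 1.31 against 0.957 over all genes. Against nuclei within the same limits 3 were higher and 1, UNCX, was lower (0.350), with a median of 1.55 against 0.948. Over all genes tested 1.6% were at least 2-fold higher and 10.2% lower, and 2.06% and 7.2% within the same limits. RIPPLY2, the second RIPPLY co-repressor, was at 71.8 CPM in members and 18.2 in the others (3.94, 3.50 to 4.42). MESP2, the bHLH factor that sets the border, was at 40.3 and 18.3 (2.20, 1.90 to 2.54). FOXC2, a forkhead factor needed for somite formation, was at 254 and 108 (2.35, 2.22 to 2.49), and CER1 is given above. FOXC2 stood at a ratio of 1.85 against nuclei within the same limits, under 2-fold. TBX18, of the anterior somite, was at 19.9 and 14.8, and UNCX, of the posterior somite, at 10.1 and 18.4.

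Of 15 early somite genes in the table, 2 were at least 2-fold higher and 4 lower, with a median ratio of 1.02. Within the same limits 1 was higher and 6 were lower, with a median of 0.675. MEOX1, a homeobox gene of the early somite, was at 500.4 and 154 CPM (3.24, 3.11 to 3.38). It held 0 to 49 UMIs per nucleus with a median of 7 in members, against a median of 1 and a highest value of 54 in the others. It was seen in 81.8% of thinned members, 40.6% of the others and 12.1% of axial-gene nuclei. ALDH1A2, which makes retinoic acid, was at 165 and 81.6 (2.03, 1.89 to 2.17), but at 1.45 within the same limits. EDNRA, the endothelin receptor type A, was on the low side at 4.63 and 31.9 (0.145, 0.0953 to 0.212), as was MEOX2 at 22.4 and 46.0 (0.488, 0.406 to 0.582). PAX3 was at 274 and 311 (0.882, 0.837 to 0.928), and 194 of the 310 members held 2 or more UMIs of it.

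Presomitic genes differed among themselves. Of 15 apart from TBX6 and MSGN1, 1 was at least 2-fold higher and 8 lower, with a median ratio of 0.493. Within the same limits the median was 0.956, with 3 higher and 3 lower. DLL3, a Notch ligand of presomitic mesoderm that acts inside the cell as an inhibitor, was the higher one, at 553 and 183 CPM (3.02, 2.90 to 3.14). FGF17, a tail bud ligand, was at 21.6 and 112 (0.192, 0.160 to 0.229), and FGF8 at 13.7 and 60.1 (0.228, 0.180 to 0.285). WNT5A, a non-canonical ligand, was at 264 and 144 (1.83, 1.73 to 1.93) and at a ratio of 3.07 within the same limits.

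Of 22 Notch and clock genes, 4 were at least 2-fold higher and 1 lower, and the median ratio was 1.11. Within the same limits 5 were higher and 0 lower, with a median of 1.13. The receptor NOTCH1 was at 247 and 83.6 (2.95, 2.78 to 3.14), whereas NOTCH2 had a ratio of 1.39 and NOTCH3 of 0.883. Among ligands, DLL3 passed 2-fold and DLL1 did not, at 98.5 and 62.7 (1.57, 1.43 to 1.72). Within the same limits both passed it, with DLL1 at 2.42 and DLL3 at 4.83. Among targets, HES5 was at 16.1 and 5.38 (2.99, 2.34 to 3.79) and NRARP, a feedback inhibitor, at 27.1 and 13.3 (2.04, 1.71 to 2.43). HES7, the core oscillator of the clock, was at 47.5 and 98.9 (0.480, 0.424 to 0.541), but axial-gene nuclei held 224, and within the same limits the ratio was 1.01. LFNG, which modifies Notch receptors and cycles in presomitic mesoderm, was at 144 and 109 (1.33, 1.23 to 1.43).

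Of 34 WNT genes tested, 2 were at least 2-fold higher and 10 lower, with a median ratio of 0.740. Within the same limits 4 were higher and 6 lower, with a median of 0.882. LEF1, a transcription factor that carries WNT signals, was at 955 and 426 (2.24, 2.18 to 2.31), and WIF1 is given above. Targets of the pathway differed among themselves. SP5 was at 24.0 and 63.3 (0.379, 0.318 to 0.449), NKD1 at 39.2 and 85.6 (0.458, 0.399 to 0.523), AXIN2 at 27.9 and 38.8 (0.720, 0.610 to 0.844) and ZNRF3 at 130 and 122 (1.07, 0.987 to 1.15). Within the same limits their ratios were 0.734 for SP5, 0.667 for NKD1, 0.867 for AXIN2 and 1.32 for ZNRF3. DKK1, a secreted inhibitor, was at 28.3 and 63.4 (0.446, 0.379 to 0.521) and at 0.448 within the same limits. Of 21 FGF genes, 2 were higher and 6 lower, with a median of 0.654, and within the same limits 2 were higher and 3 lower, with a median of 0.965. FGF18 was at 87.7 and 36.4 (2.41, 2.18 to 2.66), and the feedback inhibitor SPRY1 at 109 and 50.2 (2.17, 1.99 to 2.37).

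Over all genes 1.6% were at least 2-fold higher and 10.2% lower, and 2.06% and 7.2% within the same limits, and the lists that follow are read against these shares. Of 17 cadherins, 3 were at least 2-fold higher and 7 lower, with a median of 0.712, and 3 were higher and 5 lower within the same limits. The higher ones were PCDH17 at 75.9 and 16.8 (4.53, 4.03 to 5.08), PCDH19 at 323 and 109 (2.97, 2.81 to 3.12) and CDH20 at 52.8 and 19.6 (2.70, 2.37 to 3.06). CDH2, the N-cadherin of paraxial mesoderm, was at 586 and 496 (1.18, 1.14 to 1.23), and CDH11 at 578 and 641 (0.901, 0.870 to 0.934). Of 17 Eph receptors and ephrins, which repel cells at somite borders, 0 were higher and 2 lower, and 0 were past either limit against nuclei within the same limits, so neither count stands apart from the share of all genes. EPHA4 was at 511 and 546 (0.936, 0.901 to 0.972) and at a ratio of 1.60 within the same limits. Of 24 matrix and integrin genes, 0 were higher and 5 lower, or 4 within the same limits. Among them was fibronectin, FN1, at 187 and 804 (0.233, 0.219 to 0.247), of which axial-gene nuclei held 2535. The FN1 ratio moved to 0.516 with nuclei of at most 15% mitochondrial UMIs.

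Of 25 BMP and TGF-beta genes, 1 was at least 2-fold higher and 11 lower, with a median of 0.600, and 1 was higher and 7 lower within the same limits. BMP4 was the higher one, at 20.2 and 6.06 (3.34, 2.68 to 4.13). FST, the activin antagonist follistatin, was at 601 and 711 (0.845, 0.816 to 0.875). Of 14 Hedgehog genes, 1 was higher and 4 lower, and 2 and 6 within the same limits. The inhibitor HHIP was at 38.9 and 8.64 (4.50, 3.82 to 5.29). PTCH1, the receptor and target, was at 429 and 343 (1.25, 1.20 to 1.30) and at 2.22 within the same limits. Of 17 retinoic acid genes, 1 was higher in each comparison and the same 3 were lower in both, which is close to the shares of all genes. The median was 0.862. The higher gene was ALDH1A2 against all other nuclei, and STRA6 within the same limits, at 2.30 there and 1.80 in the main comparison.

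Of 25 HOX genes tested, 0 were at least 2-fold higher and 4 lower, namely HOXA9, HOXC6, HOXC8 and HOXC9, and within the same limits 3 were higher and 1 lower, with a median of 1.06. HOXD3 was at 228 and 117 (1.95, 1.83 to 2.07) and HOXD4 at 45.2 and 24.1 (1.87, 1.64 to 2.14). HOXC8 was at 7.37 and 34.0 (0.217, 0.156 to 0.293). HOXB9 differed little, at 69.4 and 71.9 (0.965, 0.869 to 1.07). HOXB3 was at 153 and 201 (0.762, 0.711 to 0.816) and HOXB4 at 57.2 and 104 (0.551, 0.492 to 0.615). HOX genes of lower number act further forward along the body axis.

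Several of these genes crossed the 2-fold limit when the rule was moved. With a threshold of 2 UMIs of the pair, the ratios of MESP2, LEF1, FGF18, SPRY1 and LMO2 were 1.83, 1.75, 1.87, 1.73 and 1.87, and MEOX2 was at 0.984. With a threshold of 5, HES5 was at 1.80 and EDNRA at 0.0659. Within the same upper limits FGF17 was at 0.590 and ALDH1A2 at 1.45. The ratios of MEOX1, DLL3, RIPPLY2, NOTCH1, PCDH17, PCDH19, BMP4 and HHIP stayed over 2 in all 9 alternatives.

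Cell cycle genes were near 1. Of 42 S phase genes, 0 were 2-fold higher or lower, with ratios of 0.674 to 1.22 and summed levels of 3706 CPM in members and 3632 in the others. Of 52 G2/M genes, 0 passed either limit, with ratios of 0.840 to 1.28 and sums of 5876 and 5508. No phase was called for single nuclei.

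Markers of other cell types were counted the same way. Of 9 notochord and node genes 0 were higher and 8 lower, with a summed level of 47.6 CPM in members, 381 in the others and 1588 in axial-gene nuclei, and 0 of the 9 were at 0 in members. Within the same limits 7 of the 9 were lower. Of 5 endoderm genes with a value 4 were lower, or 2 within the same limits, with sums of 37.5 and 149, and of 7 neural genes 3 were lower, or 1 within the same limits, with sums of 144 and 128. Of 13 tail bud genes 0 were higher and 6 lower, with sums of 801 and 1158. WNT8A at 2.28 and EVX1 at 2.16 were the 2 higher ones within the same limits, where 3 were lower. Of 4 neural crest genes 2 were lower and 0 higher, with sums of 65.6 and 74.5. SOX9 was higher within the same limits, at 2.07, and 1 other gene was lower there. Of 3 intermediate mesoderm genes 1 was lower and of 7 pluripotency genes 1 was lower, with 0 of either list within the same limits, and neither count says more than the 10.2% of all genes. Of the germ cell list the 1 gene tested was lower. The lateral plate and cardiac list had 1 higher gene, BMP4, and 2 lower of 4. The endothelial and blood list had 1 higher gene of 5, LMO2, a transcription co-factor, at 20.05 and 9.43 (2.13, 1.72 to 2.60), and 1 lower, KDR. RUNX1 joined LMO2 as higher within the same limits, at 2.70 and 2.10, and KDR stayed lower. The median mitochondrial share was 15.5% in members and 15.6% in the others. Scrublet marked 4 members as doublets.

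Members with PCDH8 alone and members with RIPPLY1 alone differed in the levels of many genes that the rule did not use. The kinds of member also differed in the amount of the pair, and kind and amount were not tested apart. They were set beside 283 nuclei with 3 or more UMIs of TBX6 plus MSGN1, called TBX6 or MSGN1 nuclei here, and 1098 nuclei with 2 or more UMIs of PAX3 and at most 1 of PCDH8 plus RIPPLY1, called PAX3 nuclei. Both outer groups held at most 1 UMI of SOX2 and no nucleus in common, and PAX3 nuclei held at most 1 of TBX6 plus MSGN1. The TBX6 or MSGN1 nuclei had no limit on PCDH8 plus RIPPLY1 or on TBXT. Nuclei with 3 or more UMIs of the pair could thus be among them, so they are not a group without the pair. The 3 kinds of member had similar median depths, 17593 UMIs with PCDH8 alone, 18305.5 with both and 17302 with RIPPLY1 alone, against 19939 in TBX6 or MSGN1 nuclei and 14340.5 in PAX3 nuclei.

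RIPPLY2 was at 317 CPM in members with PCDH8 alone (95% interval 268 to 373), 71.2 with both (62.7 to 80.5) and 9.96 with RIPPLY1 alone (5.90 to 15.7). TBX6 or MSGN1 nuclei held 50.9 and PAX3 nuclei 9.98, so the level with RIPPLY1 alone lay within counting error of the PAX3 nuclei. PCDH8 alone exceeded RIPPLY1 alone by a ratio of 31.9 (19.5 to 55.3). MESP2 had the same order among members, at 104 (76.4 to 137), 49.1 (42.1 to 56.9) and 6.64 (3.43 to 11.6), with 61.8 in TBX6 or MSGN1 nuclei and 5.53 in PAX3 nuclei. Only 27 nuclei stand behind the first value of each, of which 18 held RIPPLY2 and 11 held MESP2, with 29.2% of the MESP2 UMIs in 1 nucleus.

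Of 12 border genes with a value here, 6 had an interval above 1 for the ratio of PCDH8 alone to RIPPLY1 alone, 3 one below 1 and 3 one that held 1. HES7, DLL1, DLL3 and FGF18, of other lists, were also highest with PCDH8 alone among the 3 kinds of member. HES7 was at 162 (127 to 203) with PCDH8 alone, 43.2 with both and 26.6 with RIPPLY1 alone, and the first overlapped the 172 of TBX6 or MSGN1 nuclei while the last overlapped the 29.1 of PAX3 nuclei. DLL1 was at 261, 105 and 43.1, beside 217 and 33.8. DLL3 was at 920, 682 and 205, beside 717 and 65.0, so that members with RIPPLY1 alone still exceeded PAX3 nuclei. FGF18 was at 291, 92.8 and 25.4, beside 93.2 and 27.5. LEF1 was level between the first 2 kinds, at 1185 and 1160, and lower with RIPPLY1 alone at 490.1, with 1065 in TBX6 or MSGN1 nuclei and 308 in PAX3 nuclei. PCDH19 was at 518, 419 and 82.4, beside 373 and 50.7.

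Another set of genes was highest with both. MEOX1 was at 628 CPM in these nuclei (603 to 655), against 307 (258 to 361) with PCDH8 alone and 298 (273 to 324) with RIPPLY1 alone, and 124 and 232 in TBX6 or MSGN1 and PAX3 nuclei. BARX2 was at 39.5 with both (33.3 to 46.6), 8.64 with PCDH8 alone (2.35 to 22.1) and 14.9 with RIPPLY1 alone (9.84 to 21.7), beside 7.98 and 3.45 in the outer groups. WIF1 was at 28.0 (22.8 to 34.1), 2.16 on 1 UMI, and 14.4 (9.40 to 21.1), beside 1.02 and 1.90. With PCDH8 alone, BARX2 and WIF1 thus had intervals that overlapped those of TBX6 or MSGN1 nuclei. HHIP and CDH20 were also highest with both, HHIP at 55.0 against 8.64 and 14.9, and CDH20 at 78.5 against 4.32 and 14.4.

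Of 11 early somite genes with a value here, 8 were lower with PCDH8 alone than with RIPPLY1 alone, with an interval of the ratio below 1, and for 3 (MEOX1, EBF1 and ALDH1A2) the interval held 1. ALDH1A2 was at 145, 167 and 168 CPM with PCDH8 alone, with both and with RIPPLY1 alone, a ratio of the first to the last of 0.860 (0.650 to 1.12). EBF1 had a ratio of 0.734 (0.519 to 1.02), with 129 CPM in members with RIPPLY1 alone. PAX3 was at 130 CPM with PCDH8 alone (98.9 to 167), 220 with both (205 to 236) and 418 with RIPPLY1 alone (388 to 449), between the 67.4 of TBX6 or MSGN1 nuclei and the 667 of PAX3 nuclei, which were chosen by this gene. TBX18, of the border list, was at 2.16, 15.98 and 32.1, the last close to the 31.5 of PAX3 nuclei. UNCX, of the same list, had 0 UMIs with PCDH8 alone and was at 4.77 with both and 23.2 with RIPPLY1 alone, beside 34.2 in PAX3 nuclei. MEOX2 was at 4.32, 12.6 and 46.5, beside 104 in PAX3 nuclei. EDNRA was at 1.96 with both and 11.1 with RIPPLY1 alone (6.76 to 17.1, with 35.0% of its 20 UMIs in 1 nucleus), below the 68.0 of PAX3 nuclei (64.1 to 72.1) in each case. In other lists FST was at 151, 384 and 1142, beside 1426 in PAX3 nuclei, while CDH11 was not ordered this way, at 510, 439 and 867, beside 683 in TBX6 or MSGN1 nuclei and 963 in PAX3 nuclei.

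HES5 had its highest level with RIPPLY1 alone. It was at 42.0 CPM with RIPPLY1 alone (33.1 to 52.6), 4.77 with both (2.78 to 7.63) and 2.16 with PCDH8 alone on 1 UMI, beside 4.24 in TBX6 or MSGN1 nuclei and 2.44 in PAX3 nuclei. Few nuclei carried it, since the 76 UMIs with RIPPLY1 alone lay in 10 of 101 nuclei and 22 of them (28.9%) in 1, without which the level was 30.5 CPM. The counting interval takes each UMI as independent and so understates the spread between nuclei. After thinning HES5 was seen in 8 of 100 nuclei with RIPPLY1 alone, 1.11% of those with both, 0.936% of PAX3 nuclei and 2.25% of axial-gene nuclei. HES7 was at 26.6 CPM in the same nuclei.

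The leading genes were chosen for their ratio to all other nuclei, which include both outer groups, so an excess over these groups is in part fixed by the choice and is given as a description. WIF1 exceeded both, with ratios of 21.4 (9.55 to 59.3) to TBX6 or MSGN1 nuclei and 11.4 (7.72 to 17.4) to PAX3 nuclei. CER1 had ratios of 9.95 (4.58 to 25.7) and 6.63 (4.26 to 10.5), and MYOCD of 8.58 (6.27 to 12.0) and 6.06 (5.06 to 7.28). ADAM12 had ratios of 6.08 and 5.15, NR3C2 of 4.27 and 4.66, MEOX1 of 4.04 and 2.15, BARX2 of 3.69 and 8.55 and HHIP of 3.47 and 5.79. Other leading genes exceeded TBX6 or MSGN1 nuclei by less, with RELN at ratios of 1.49 (1.37 to 1.63) and 17.9 (15.5 to 20.9) and TRPC6 at 2.97 and 19.1. FGF17 separated members from the TBX6 or MSGN1 nuclei, at a ratio of 0.121 (0.0997 to 0.146), and not from PAX3 nuclei beyond counting error, at 0.893 (0.725 to 1.09). EDNRA did the reverse, at 1.36 (0.736 to 2.56) and 0.0680 (0.0446 to 0.0995).

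Levels were also followed along the UMIs of the pair, in nuclei that met the upper limits. The 1203 nuclei with 0 UMIs had a median depth of 12654, the 66 with 20 or more one of 20600, so a sum of this kind rises with depth as well as with level. LEF1 was at 337, 364 and 393 CPM with 0, 1 and 2 UMIs of the pair, and then at 598 with 3 to 4, 879 with 5 to 9, 1179 with 10 to 19 and 1369 with 20 or more. NOTCH1 was at 71.9, 67.2 and 80.6 outside the threshold and at 132, 241, 301 and 373 inside it. MEOX1 was at 197, 245 and 230.4 outside and 298, 487, 499.6 and 797 inside. NOTCH1 and MEOX1 varied less outside the threshold than inside it.

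BARX2 was at 4.67, 5.97 and 9.18 outside the threshold and 18.6, 18.7, 52.4 and 39.5 inside, where the last 2 intervals overlapped. WIF1 was at 3.07, 2.80 and 6.81 outside and 16.02, 18.0, 22.8 and 33.0 inside, where each interval overlapped the next. CDH11 was at 884, 860 and 815 outside and 817, 601, 422 and 333 inside. EDNRA was already lower outside the threshold, at 63.2, 47.3 and 21.9, and inside was at 9.82, 4.68, 0.989 and then 0 UMIs of 1393340, which allows up to 2.65 CPM. PAX3 was at 483, 473 and 526 outside, and at 379, 242, 159 and 246 inside.

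**Figure D3:**
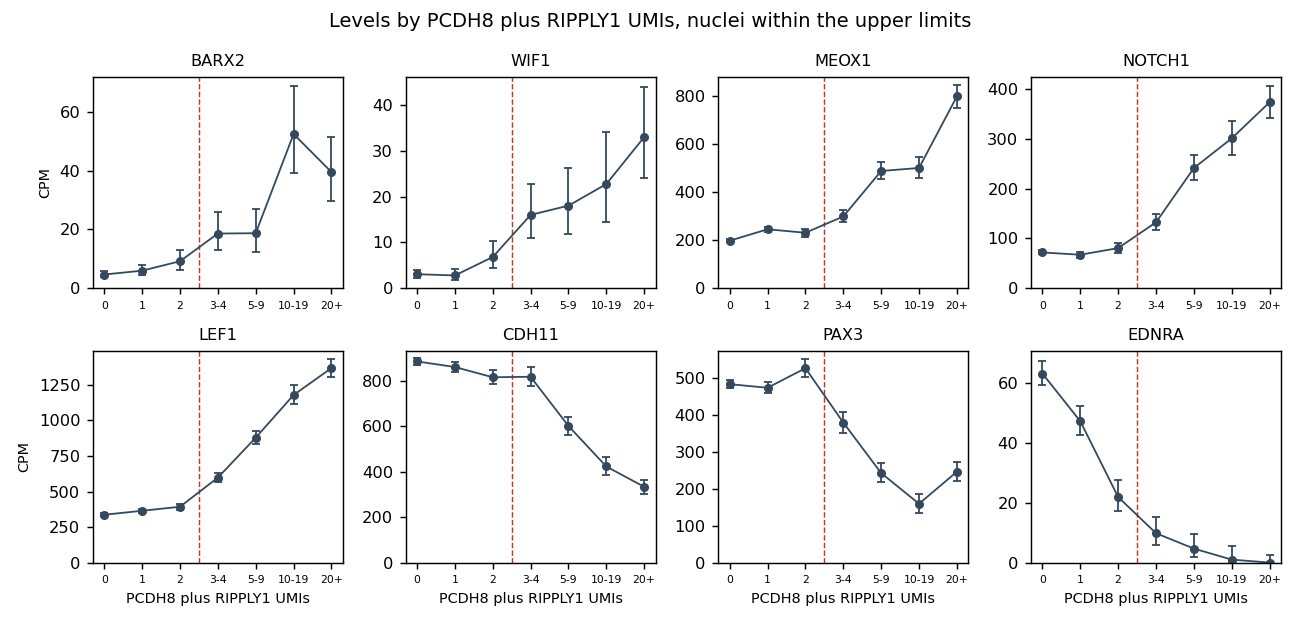
CPM (y axis, a scale of its own in each panel) of 8 genes in nuclei within the upper limits, by PCDH8 plus RIPPLY1 UMIs per nucleus (x axis), with exact Poisson 95% intervals as bars and the dashed line at the threshold. LEF1 and NOTCH1 are near level up to 2 UMIs and reach 1369 and 373 at 20 or more, while EDNRA goes from 63.2 to 0.

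The 74 nuclei with exactly 3 UMIs exceeded the 192 with exactly 2 in TRPC6 by a ratio of 4.72 (3.04 to 7.45), in HES5 by 3.28 (2.05 to 5.31) and in PCDH17 by 2.15 (1.53 to 3.01). Of the 74, 56 held RIPPLY1 alone, a kind of member in which few nuclei carried HES5, as given above. The HES5 ratio may thus rest on few nuclei, beyond what its interval covers. MEOX1 had a ratio of 1.23 (1.09 to 1.40) and LEF1 of 1.31 (1.19 to 1.44). BARX2, WIF1, RIPPLY2 and MESP2 did not differ there beyond counting error, at 1.09 (0.523 to 2.14), 1.35 (0.614 to 2.84), 1.13 (0.632 to 1.95) and 0.878 (0.528 to 1.41). FN1 had a ratio of 0.438 (0.378 to 0.507).

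By the rest of the transcriptome, members had more member neighbours than the other nuclei had. Each nucleus was given its 15 nearest neighbours over 30 principal components of 2000 variable genes, with the 6 genes of the rule left out. Of the members' neighbours 47.2% were members, 18.7% were PAX3 nuclei and 5.01% TBX6 or MSGN1 nuclei, while 5.89% of the neighbours of other nuclei were members. The share was 63.4% for members with both genes, 39.0% with PCDH8 alone and 20.1% with RIPPLY1 alone. With PCDH8 alone a further 25.7% of neighbours were TBX6 or MSGN1 nuclei, and with RIPPLY1 alone 45.5% were PAX3 nuclei. Nuclei with 20 or more UMIs of the pair had 77.5% member neighbours, those with exactly 3 had 19.9% and those with exactly 2, outside the group, 12.4%. Of the 310 members, 29 had no member among their 15 neighbours and 5 had only members. The groups beside them had more neighbours of their own kind than the members' 47.2%. These shares were 55.2% for TBX6 or MSGN1 nuclei, 65.1% for PAX3 nuclei and 87.6% for axial-gene nuclei. The groups differ in size, and PAX3, NOTO, SHH and FOXJ1 were not among the genes left out.

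**Figure D4:**
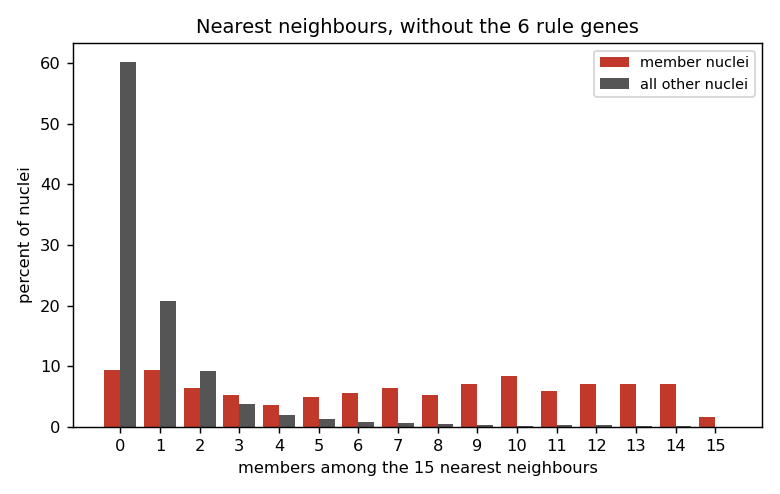
Percent of nuclei (y axis) by the number of members among their 15 nearest neighbours (x axis), for members (red) and all other nuclei (grey), from a neighbour graph made without the 6 genes of the rule. Members are spread from 0 to 15, with 29 of 310 at 0, while 1876 of 3112 other nuclei are at 0.

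Members with both genes had the highest levels of MEOX1, BARX2 and WIF1 and the most member neighbours. The kinds also differed in the amount of the pair, since 56 of the members with RIPPLY1 alone held exactly 3 UMIs. Whether the differences go with the kind of member or with the amount of the pair was not tested. The 101 members with RIPPLY1 alone had most of their neighbours outside the group, and their levels of RIPPLY2, MESP2 and HES7 lay within counting error of PAX3 nuclei, although DLL3, MEOX1, BARX2, WIF1 and HES5 exceeded those of PAX3 nuclei. CER1 was also above PAX3 nuclei, at 8.30 CPM (4.64 to 13.7) against 1.78 (1.20 to 2.54), on 15 UMIs in 5 nuclei. Border genes thus did not give 1 answer on the label for these 101, which are called by their rule.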

How the data were processed

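The authors read RNA and open chromatin from single nuclei of pooled 72 h gastruloids of the H9 line. The deposited values are UMI counts per gene and nucleus, made by the authors with cellranger-arc 2.0.0 on GRCh38, and positions of peaks called over all nuclei. The table held 17493 genes and 3646 nuclei, of which 224 were left out here (under 1000 UMIs or over 25% mitochondrial UMIs). Members and gene lists were chosen with earlier results of these data known.

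UMIs were summed per group and given per 1000000 UMIs (CPM). Ratios of these levels carry the exact conditional 95% interval of 2 Poisson counts, levels the exact Poisson interval and shares the exact binomial (Clopper-Pearson) interval. All cover counting error only. Genes with 50 or more UMIs outside the rule were compared, and mitochondrial genes were left out only when the leading genes were picked. The genes named are the 20 with the highest lower bound and the 10 with the lowest upper bound of the ratio, and list genes with 20 or more UMIs in members. List genes with fewer are given by name only. Shares of nuclei were taken after thinning each nucleus to 5000 UMIs, which left out 3 members and 222 others. The comparison with nuclei within the same upper limits was chosen after the data were seen. Promoter windows came from RefSeq on GRCh38.p14, where 14 of the 20 leading genes and 9 of the 10 lowest were matched by name. Gene overlaps came from GENCODE on GRCh37, matched by gene identifier. Doublets were marked with Scrublet and kept. Nuclei were counted, given their nearest neighbours without clustering and plotted in python 3.11.15 with numpy 2.4.6, scipy 1.17.1, pandas 2.3.3, scanpy 1.11.5, scikit-learn 1.9.0 and matplotlib 3.10.9. The ratio script was tested on simulated data. The bulk libraries of the series were not used here.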

Additional observations from a re-analysis of the deposited data

How the results depend on the processing

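The group held 125 nuclei with a limit of 15% mitochondrial UMIs, 502 with a threshold of 2 UMIs of PCDH8 plus RIPPLY1 and 200 with one of 5, instead of 310. Genes at least 2-fold higher numbered 274 of 17144 tested, and 182 of 17144 with the threshold of 2 and 164 of 13363 with genes of 200 or more UMIs. Genes at least 2-fold lower numbered 1746 of 17144, and 1031 of 14650 with the 15% limit and 912 of 13363 with genes of 200 or more UMIs. The counts are thus not out of equal numbers of genes. Higher genes were 13.6% of those past either limit, and 11.9 to 22.3% over the alternatives, with 22.3% for nuclei within the same upper limits. The share of member neighbours was 47.2%, and 44.6% with 30 neighbours. Of 55 named genes, 51 were past 2-fold, and 45 to 51 of these still were under the 9 other settings. Of the 55, 3 crossed a ratio of 1, namely HES7 at 1.01 and TBX18 at 0.822 against nuclei within the same upper limits, TBX18 also at 0.9498 with the threshold of 5, and PAX3 at 1.24 with the threshold of 2. Of these only HES7 was past 2-fold in the main comparison. For the changes of group and gene filter, fewer or more nuclei or genes entered by construction. The cause of the others was not tested. No paired analysis was possible because there was 1 RNA library and no result came from a test.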
